A study of Mus musculus with 12 samples.

Results

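Total RNA was compared between Ddx27-knockout and wild-type C2C12 myoblasts in 5 sequencing libraries, 3 of wild-type and 2 of knockout cells, out of the 11 libraries of the series that carry values. C2C12 is an established mouse myoblast line that divides as separate cells and can fuse into myotubes. The libraries were those labelled as total cellular RNA. The wild-type libraries carry the genotype wildtype, and the knockout libraries the genotype Ddx27-/-. The labels name no drug, time point, culture state, clone, method of knockout or site of the lesion, and all libraries share the same line and the same Trizol extraction. They list 3 knockout samples of total RNA. Values of 2 such libraries were analysed here, and their numbers belong to the columns of the knockout table, since they could not be tied to a sample title. The labels do not say that replicates came from separate cultures, so p-values measure only the spread between these samples. Polysomal RNA of the same 2 genotypes, 3 libraries each, stands beside some results.

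Ddx27 encodes a nucleolar DEAD-box RNA helicase that acts in the processing of ribosomal RNA and associates with the Pes1, Bop1 and Wdr12 proteins of large-subunit assembly. In myoblasts, the basic helix-loop-helix factors Myf5 and Myod1 commit a cell to muscle, and Myog with the Mef2 factors turns on the genes of the contractile apparatus. These factors pair with E proteins and bind E-boxes in the DNA beside muscle genes. Id proteins bind E proteins without binding DNA, and Notch signalling holds myoblasts back from differentiation. The comparison asks which transcripts differ in abundance in cells that carry the knockout.

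The 250 bases before the annotated start of 3 muscle genes are printed because they show the E-box form CAGCTG, in capitals, that such factors bind, beside genes of which the levels follow below. They come from RefSeq on GRCm38.p6 and run 5′ to 3′ on the strand of the gene, and bases are counted back from the start. Chrna1, which encodes the ligand-binding subunit of the muscle acetylcholine receptor, lies on the minus strand with its window at chr2:73580339-73580588 and has boxes that begin at -92 and -44. Des, which encodes the intermediate filament protein desmin, lies on the plus strand with its window at chr1:75360042-75360291 and has a box that begins at -36. Acta1, which encodes skeletal muscle actin, lies on the minus strand with its window at chr8:123894776-123895025 and has a box that begins at -221.
Chrna1: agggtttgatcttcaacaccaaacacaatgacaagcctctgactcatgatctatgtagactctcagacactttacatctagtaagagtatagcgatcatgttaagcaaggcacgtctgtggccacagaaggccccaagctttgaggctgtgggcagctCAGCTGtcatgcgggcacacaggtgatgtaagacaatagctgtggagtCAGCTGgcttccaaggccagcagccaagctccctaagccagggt
Des: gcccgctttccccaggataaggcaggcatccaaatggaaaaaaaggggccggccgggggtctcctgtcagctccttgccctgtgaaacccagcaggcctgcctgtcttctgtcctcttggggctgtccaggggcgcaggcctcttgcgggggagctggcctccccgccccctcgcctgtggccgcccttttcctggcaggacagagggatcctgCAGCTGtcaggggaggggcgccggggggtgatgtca
Acta1: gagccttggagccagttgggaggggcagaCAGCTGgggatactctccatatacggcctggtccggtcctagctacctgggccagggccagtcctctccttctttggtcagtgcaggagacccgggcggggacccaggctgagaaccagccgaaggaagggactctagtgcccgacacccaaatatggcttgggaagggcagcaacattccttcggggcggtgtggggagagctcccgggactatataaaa
CAGCTG is its own reverse complement, so both strands were searched at once, and no other motif was searched. Among tested genes with a window, 980 of 8515 (11.5%) held it, as did 4271 of all 32851 windows (13%). In 4 muscle lists described below (regulatory factors, myoblast surface, fusion and synapse, contractile), where limma's calls took 18.2% of all tested genes as lower and 18.4% as higher, it was in 11 of 33 windows (33.3%) of genes called lower, in 14 of 39 (35.9%) of genes not called and in 3 of 8 (37.5%) of genes called higher. The shares of the called and the uncalled muscle genes were thus close, and the match of letters says nothing about binding.

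Values are normalised read counts, that is, whole reads times 1 factor per library, which were brought to 1 scale over all libraries. The 5 libraries held 18253045 to 27347878 reads in the listed genes. Over the tested genes, Pearson's r of the log2 values was 0.989 to 0.997 between wild-type libraries, 0.970 between the knockout libraries and 0.897 to 0.955 between genotypes. The knockout libraries differed from the wild-type mean in step with gene length: the slope of the log2 difference on log2 length was -0.139 for knockout replicate 1 and -0.364 for knockout replicate 2, against -0.009 to 0.007 for the wild-type libraries. The shortest group of genes, of 10 groups by length with a median of 801 bases, had median log2 differences of 0.29 and 0.79 in knockout replicates 1 and 2, and the longest, with a median of 10270 bases, had -0.25 and -0.71. The total RNA contrast was therefore also fitted with this trend removed. The polysomal contrast, the comparison of the 2 contrasts, summed levels and motif shares below were not, and the part of the trend in the calls themselves was not tested. Wild-type replicate 3 stood apart in genes of differentiated muscle: the 6 markers of myotubes summed to 281, 284 and 743 normalised read counts in wild-type replicates 1 to 3 and to 164 and 147 in the knockout libraries.

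**Figure D1:**
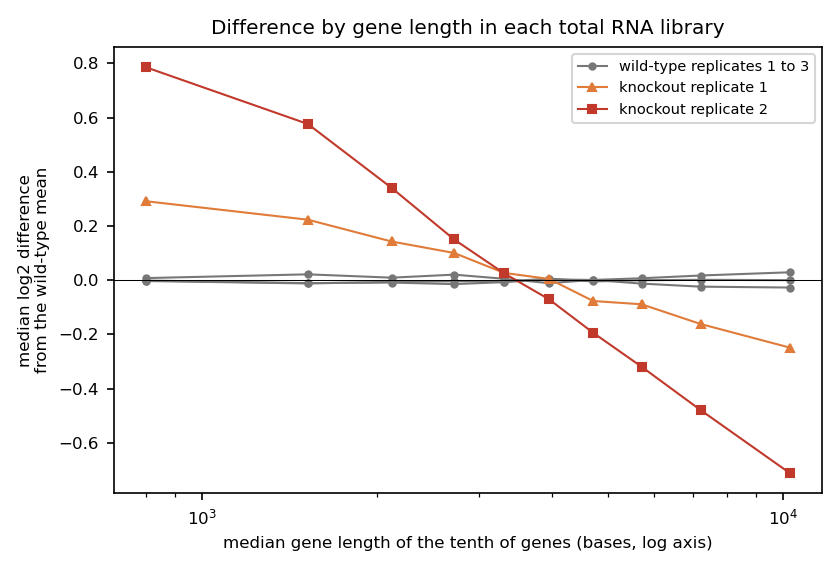
Median log2 difference of each total RNA library from the wild-type mean (vertical axis) against the median gene length of 10 groups of the tested genes by length (horizontal log axis, bases). The 3 wild-type libraries stay near 0 at every length, while knockout replicate 2 goes from 0.79 to -0.71 and knockout replicate 1 from 0.29 to -0.25.

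Of 12590 genes listed for both genotypes, 12233 passed a filter of at least 1 normalised read count in at least 2 of the 5 libraries. Limma's test on log2(value + 1), with Benjamini-Hochberg adjustment at 0.05, called 2247 genes (18.4%) higher and 2227 genes (18.2%) lower in the knockout, 36.6% in all. Of these, 830 were higher and 721 lower by at least 1 on the log2 scale. All differences below are knockout minus wild type on that scale with their standard error (SE), and adding 1 makes those of low genes smaller than they would be on the counts alone. The median difference of all tested genes was -0.0038. Without the common scale it was -0.13, and the split became 1646 higher and 3123 lower. The counts depended on the wild-type libraries: without wild-type replicates 1, 2 and 3 they were 1320 and 1292, 1197 and 1168, and 847 and 917. Without knockout replicate 1 they were 3424 and 3777, a fit in which the lone knockout library is assumed to vary like the wild type. The median length was 2210 bases in genes called higher and 5460 bases in genes called lower, against 3618 bases in all tested genes. The filter can be passed through 1 genotype alone: 307 tested genes reached it in fewer than 2 wild-type libraries, 103 of them called higher and 0 lower, and 518 in fewer than 2 knockout libraries, 142 of them called lower and 0 higher. With the length trend removed, 1749 of the 2247 and 1693 of the 2227 genes were called in the same direction.

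**Figure D2:**
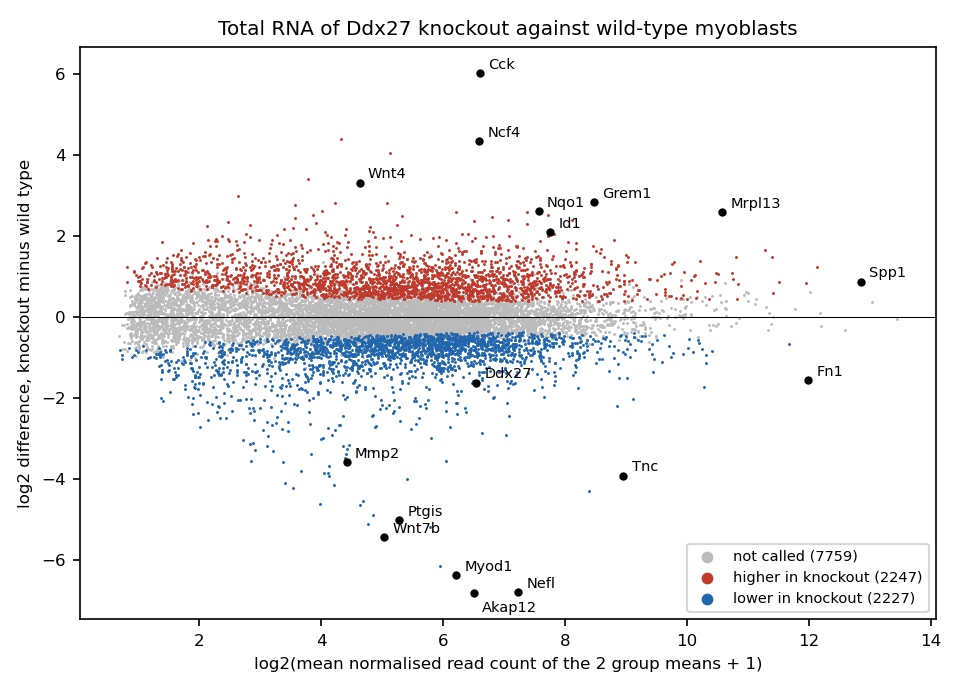
Difference between knockout and wild-type total RNA (vertical axis, log2) against the mean level of the 2 groups (horizontal axis, log2) for each of the 12233 tested genes. Named genes are black points: Myod1, Akap12 and Nefl lie below -6, Cck lies above 6, and called genes lie on both sides of 0 at all levels.

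The targeted gene, Ddx27 (chr2:167015313-167034945, GRCm38.p6), was at 145, 139 and 135 normalised read counts in the wild-type libraries and at 41.9 and 47.6 in the knockout libraries. The groups did not overlap, and about as much Ddx27 RNA was left in either knockout library. The difference of -1.62 ± 0.13 (SE, adjusted p = 0.000236) passed the threshold in each of the 17 alternative settings. Reads are counted over the gene as a whole, so the values do not show which part of the transcript was left. Of 14 other genes within 500 kb, 5 were called lower and 1 higher, beside 18.2% and 18.4% of all tested genes. The largest difference was that of Ptgis, which encodes prostacyclin synthase and lies at chr2:167203194-167252150. It was at 68.8, 65.5 and 89.3 in wild type and at 1.08 and 1.58 in knockout libraries, a difference of -5.01 ± 0.20 (SE, adjusted p = 9.03e-06). The long non-coding RNA gene 1500012F01Rik was at 55.5, 52.7 and 38.8 against 91.6 and 282, with knockout replicate 2 far above knockout replicate 1. Its difference of 1.71 ± 0.40 (SE, adjusted p = 0.0146) was not called without wild-type replicate 3 (adjusted p = 0.0883) and was 0.91 without knockout replicate 2. Slc9a8, which encodes a sodium-proton exchanger, had a difference of -0.90 (adjusted p = 0.00843, and 0.0539 without wild-type replicate 3), or -0.55 with the length trend removed. The galactosyltransferase gene B4galt5 and Spata2 had differences of -0.71 (adjusted p = 0.0204, and 0.07, 0.0736 and 0.0585 without wild-type replicates 1, 2 and 3) and -0.74 (adjusted p = 0.0105, and 0.0504 and 0.054 without wild-type replicates 1 and 3). Cse1l, which encodes a nuclear export receptor, had a difference of -0.40 (adjusted p = 0.0378, and 0.151, 0.199 and 0.08 without wild-type replicates 1, 2 and 3), or -0.25 with the length trend removed (adjusted p = 0.103). The other 8 did not pass, with differences of -0.37 for Stau1, -0.50 for Znfx1, -0.41 for Rnf114, -0.39 for Gm11470, -0.034 for Arfgef2, 0.39 for Gm11472, 0.60 for Prex1 and 0.70 for Trp53rk. The coordinates of 1500012F01Rik overlap those of Znfx1, and those of Spata2 overlap those of Rnf114, so reads of these pairs may not be told apart.

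Only genes listed for both genotypes were ranked. The 15 that fell most included Myod1, the cytoskeletal scaffold gene Akap12, the neurofilament genes Nefl and Nefm, and Wnt7b. Akap12 was at 161, 175 and 200.05 in wild type and at 1.496 and 0 in knockout libraries, a difference of -6.82 ± 0.34 (SE, adjusted p = 2.14e-05). Nefl went from 263, 261 and 366 to 1.60 and 1.67, a difference of -6.80 ± 0.18 (SE, adjusted p = 2.33e-06). Every knockout value of these genes lay below 3, and every wild-type value of Akap12 and Nefl above 150. Car3, which encodes the carbonic anhydrase abundant in skeletal muscle, was the highest of the 15 in the knockout, at 692, 725 and 511 against 33.3 and 29.2. The other falls were -6.15 for Osbp2, -5.45 for Wnt7b, -5.19 for Nefm, -5.12 for Ccbe1, -5.01 for Ptgis and -4.90 for Has1, a hyaluronan synthase. Krt19, Gap43, Efhd1, Car3, the lysyl oxidase gene Loxl2 and Sorbs2 followed, with -4.65, -4.62, -4.54, -4.31, -4.23 and -4.16. Each of the 15 was called when any of the 5 libraries was left out.

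Among genes listed for both genotypes, the 15 largest rises were led by Cck, which encodes the peptide hormone cholecystokinin. Cck was at 1.68, 1.49 and 2.27 in wild type and at 135 and 244.8 in knockout libraries, a difference of 6.04 ± 0.26 (SE, adjusted p = 1.27e-05). Ncf4, which encodes a subunit of the phagocyte NADPH oxidase, went from 9.60, 9.95 and 5.08 to 159 and 205, a difference of 4.35 ± 0.27 (SE, adjusted p = 5.98e-05). Cd24a, a surface glycoprotein gene, went from 3.76, 3.29 and 1.95 to 53.1 and 76.3, a difference of 4.04 ± 0.26 (SE, adjusted p = 6.35e-05). These 3 genes were low in all wild-type libraries, and both knockout libraries held at least 50 normalised read counts of each. Nqo1, a quinone reductase gene known as a target of the factor Nrf2, was already expressed in wild type and went from 51.9 ± 6.397 (SD, n = 3) to 325 ± 53.03 (SD, n = 2), a difference of 2.62 ± 0.17. Mrpl13, of the mitochondrial large ribosomal subunit, had the highest level of the 15, at 426, 463 and 341 against 1696 and 3618, and its knockout libraries differed by far more than its wild-type libraries. Sprr2h (4.39) and Lce1g (2.99), genes of the cornified envelope of skin, rose from below 1. Neither could be tested without 1 of the knockout libraries, because then only 1 library reached the filter. The remaining rises were 3.42 for Mcpt1, 3.33 for Wnt4, 2.84 for Grem1, 2.82 for Sepp1, 2.81 for Dlk2, 2.77 for Akr1c13, 2.62 for Prr9 and 2.60 for Smoc2.

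The list of muscle regulatory factors holds factors that commit cells to muscle or start its differentiation, and also Id genes. Of its 19 tested members, 8 (42.1%) fell and 5 (26.3%) rose, beside 18.2% and 18.4% of all tested genes, with a median difference of -0.33. The same 2 shares of all tested genes are the comparison for the counts of every list below. Myod1 was at 132, 132 and 172 normalised read counts in wild type and at 0.383 and 1.20 in knockout libraries, a difference of -6.38 ± 0.23 (SE, adjusted p = 6.65e-06). Myog, the factor that starts terminal differentiation, was at 37.9, 32.4 and 69.0 against 12.1 and 9.40, a difference of -1.95 ± 0.30 (SE, adjusted p = 0.00337). Both were lower in each knockout library than in any wild-type library, and wild-type replicate 3 had the most of each. Myf5 went the other way, from 55.7, 67.8 and 58.3 to 113 and 129, a difference of 0.99 ± 0.15 (SE, adjusted p = 0.00307). The 3 Id genes rose together. Id1 was at 89.9, 84.0 and 62.6 against 262 and 440.2, a difference of 2.11 ± 0.24 (SE, adjusted p = 0.00106), and knockout replicate 2 was the higher of the pair. Id3 rose by 1.35 ± 0.21 and Id2 by 1.05 ± 0.15, and each knockout library lay above all wild-type libraries. Mef2a, a partner of Myog, had a difference of -0.65 (adjusted p = 0.0115, and 0.0562 without wild-type replicate 3), or -0.34 with the length trend removed (adjusted p = 0.0528). Msc, Pax7, Mef2c and Lbx1 were listed for the wild type only and have no difference. In total RNA from cultures, fewer cells that express a gene and less RNA of it per cell cannot be told apart, here and below. The falls numbered 4, 4 and 2 without wild-type replicates 1, 2 and 3 and 3 in the fit of all 11 libraries. Rises there numbered 3 in the fit of all 11 libraries.

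**Figure D3:**
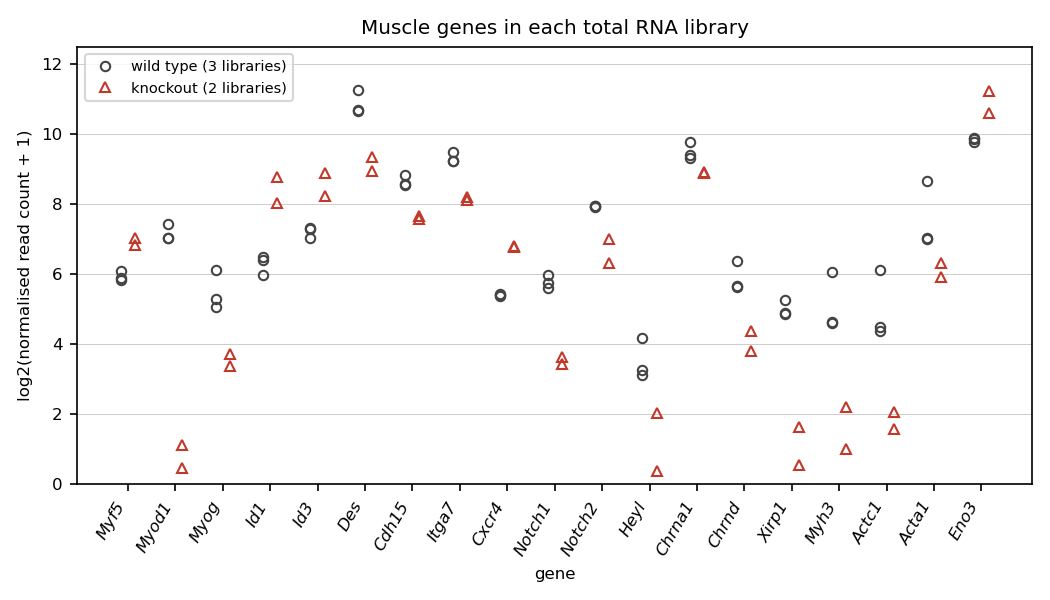
Level of 19 muscle genes (vertical axis, log2 of the normalised read count plus 1) in each total RNA library, with open circles for the 3 wild-type and triangles for the 2 knockout libraries. Myod1 lies near 7 in wild type and near 1 or below in the knockout, Myf5, Id1, Id3, Cxcr4 and Eno3 lie higher in the knockout, and wild-type replicate 3 is the highest circle of Myh3, Actc1 and Acta1.

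Surface and cytoskeletal genes of myoblasts fell in 8 of 18 tested cases and rose in 2, with a median of -0.67. Des was at 1651, 1627 and 2478 normalised read counts in wild type and at 495 and 654 in knockout libraries, a difference of -1.72 ± 0.22 (SE, adjusted p = 0.00169). The cadherin gene Cdh15 was at 376, 379.9 and 455.7 against 204 and 192, a difference of -1.02 ± 0.14 (SE, adjusted p = 0.00231), and the laminin receptor gene Itga7 at 609, 599 and 721 against 276 and 295, a difference of -1.16 ± 0.14 (SE, adjusted p = 0.00136). All 3 defining myoblast genes were lower in each knockout library than in any wild-type library, and each was still at 192 or more normalised read counts there. Cav1, Met (the receptor for hepatocyte growth factor), Cd82, Nes and Vcam1 also fell, with differences from -1.70 to -0.77. Cxcr4, a chemokine receptor gene, rose from 40.6, 42.1 and 41.2 to 111 and 110.0, a difference of 1.40 ± 0.13 (SE, adjusted p = 0.000411), with almost no spread inside either group. Cdh2, which encodes N-cadherin, rose by 0.79 ± 0.18. Ncam1 was at 81.8, 88.1 and 96.9 against 77.7 and 38.5 and did not pass (difference -0.69, adjusted p = 0.0721). The falls numbered 8 without each of the wild-type libraries, 12 without knockout replicate 1 and 7 in the fit of all 11 libraries. The 2 rises became 4 without knockout replicate 2, 4 with the length trend removed and 1 in the fit of all 11 libraries.

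Of the Notch pathway, 6 of 13 tested genes fell and 1 rose, with a median of -0.52. The receptor gene Notch1 was at 47.9, 53.3 and 62.1 normalised read counts in wild type and at 11.5 and 9.78 in knockout libraries, a difference of -2.25 ± 0.17 (SE, adjusted p = 0.000159). Notch2 was at 244, 246 and 246 against 127 and 79.3, a difference of -1.28 ± 0.20 (SE, adjusted p = 0.00322). The groups of both receptors lay apart, and the knockout libraries of Notch2 differed more from each other than its wild-type libraries did. Hey1, a repressor gene that Notch activates, fell too (-1.21 ± 0.16). Another target, Heyl, had a difference of -2.32 ± 0.49, which was -1.49 without knockout replicate 2 and was not called without wild-type replicate 3 (adjusted p = 0.0639). Among ligands, Dll1 had a difference of 0.90 (adjusted p = 0.0184, and 0.0718 and 0.0713 without wild-type replicates 2 and 3), while Jag1 did not pass, at -0.19. Notch falls numbered 3 without wild-type replicate 3. Rises there numbered 0 each without wild-type replicates 2 and 3, 2 without knockout replicate 1, 0 in the fit of all 11 libraries and 2 with the length trend removed.

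Contractile and other genes of terminal muscle fell in 20 of 61 tested cases, 18 of which by 1 or more on the log2 scale, and rose in 8, with a median of -0.41. Embryonic myosin, Myh3, was at 23.3, 23.9 and 65.5 in wild type and at 3.58 and 1.03 in knockout libraries, a difference of -3.49 ± 0.49 (SE, adjusted p = 0.00225). Cardiac actin, Actc1, was at 21.5, 19.9 and 68.5 against 3.17 and 1.97, a difference of -3.19 ± 0.48 (SE, adjusted p = 0.00307). Xirp1, which encodes an actin-binding protein of cell junctions in striated muscle, was at 28.3, 28.7 and 37.8 against 2.09 and 0.470, a difference of -3.92 ± 0.31 (SE, adjusted p = 0.0002). Wild-type replicate 3 carried the highest level of each, nearly 3 times that of the other wild-type libraries for Myh3, and the knockout libraries were below every wild-type library. Jph2 and Jsrp1, of the junction between the surface membrane and the calcium store, fell with differences of -2.13 ± 0.13 and -2.98 ± 0.22, as did the myosin-binding protein gene Mybph (-2.80 ± 0.52) and the methyltransferase gene Smyd1 (-2.33 ± 0.26). Ttn, which encodes the giant spring protein titin, had a difference of -2.38 ± 0.25, or -1.08 with the length trend removed. Acta1 was at 127, 130.0 and 405 against 79.5 and 59.9, a difference of -1.44 ± 0.46 (SE, adjusted p = 0.0399). It was -0.89 without wild-type replicate 3, and was not called without knockout replicate 2 (adjusted p = 0.135) or by DESeq2 (adjusted p = 0.0538). Not all of the list went down. The key members that did not pass had differences of -0.996 for Myl4, -0.80 for Mylpf, -0.79 for Tnnc2, -0.71 for Tnnt3, -0.39 for Ckm and -0.21 for Tnnt2. Eno3, the muscle enolase gene, rose from 961, 932 and 889 to 1573 and 2424, a difference of 1.07 ± 0.20 (SE, adjusted p = 0.00623), and Pgam2, the muscle phosphoglycerate mutase gene, rose by 1.52 ± 0.28 at a low level. The summed level of the list was 4993, 4968 and 5983 in wild type and 5476 and 6573 in the knockout. The contractile rises numbered 4, 2 and 4 without wild-type replicates 1, 2 and 3, 2 in the fit of all 11 libraries and 5 on the values as deposited.

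Genes of myoblast fusion and the neuromuscular synapse fell in 9 of 23 tested cases and rose in 2, with a median of -0.38. The acetylcholine receptor subunit gene Chrnd was at 49.6, 48.4 and 82.2 normalised read counts in wild type and at 20.001 and 13.0 in knockout libraries, a difference of -1.79 ± 0.27 (SE, adjusted p = 0.00309). Chrna1, with the upstream sequence above, was at 646, 686 and 884 against 473 and 489.9, a difference of -0.60 ± 0.17 (SE, adjusted p = 0.0256), for which adjusted p was 0.0735 and 0.0696 without wild-type replicates 2 and 3. Chrnb1 fell too (-0.79 ± 0.16). The subunits thus differed in size of change, and Chrng was at 13.2, 14.7 and 23.3 against 12.8 and 17.0, with groups that overlapped (difference -0.16). Musk, the kinase that organises the synapse, the myofibril anchoring gene Nrap and Boc, a co-receptor that promotes muscle differentiation through cell contact, fell with differences of -1.17 ± 0.21, -2.25 ± 0.29 and -1.48 ± 0.23. Tmem8c, the fusogen gene also called Mymk, was at 19.6, 18.3 and 42.2 against 14.0 and 11.96 and did not pass (difference -0.89, adjusted p = 0.0665). Rapsn, which clusters the receptor, and Jam3 rose by 0.75 ± 0.13 and 0.96 ± 0.18. The fusion falls numbered 5 in the fit of all 11 libraries. Rises there numbered 4 without knockout replicate 2, 1 in the fit of all 11 libraries and 5 with the length trend removed.

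In the TGF-beta and BMP pathways, 9 of 34 tested genes (26.5%) rose, 8 of them by at least 1, and 6 (17.6%) fell. The shares of all tested genes were 18.4% and 18.2%, and the median of the list was -0.20. The BMP antagonist gene Grem1 was at 94.8, 97.8 and 66.1 normalised read counts in wild type and at 732 and 519 in knockout libraries, a difference of 2.84 ± 0.22 (SE, adjusted p = 0.000162). Inhbb, an activin subunit gene, was at 124, 122 and 106 against 352 and 289.9, a difference of 1.44 ± 0.15 (SE, adjusted p = 0.000676). The inhibitory Smad gene Smad6, a BMP target, was at 10.2, 9.46 and 7.52 against 31.5 and 22.6, a difference of 1.47 ± 0.21 (SE, adjusted p = 0.00245). For these 3 genes, each knockout library was above all wild-type libraries. The secreted antagonist genes Fst and Chrd rose by 1.47 ± 0.21 and 1.17 ± 0.23 and the receptor-regulated Smad gene Smad9 by 1.41 ± 0.26, all from below 5. Nog, another BMP antagonist gene, was listed for the wild type only, at 3.555, 3.435 and 3.173, and has no difference. Bambi was listed for the knockout only. Among genes that fell was the ligand Tgfb2 (-1.22 ± 0.18). Inhba did not pass, at 0.062. Id1 and Id3 also belong to this list. TGF-beta and BMP falls numbered 3 each without wild-type replicates 2 and 3, 13 without knockout replicate 1, 2 in the fit of all 11 libraries and 12 on the values as deposited.

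Of the Wnt pathway, 9 of 32 tested genes (28.1%) rose and 5 (15.6%) fell, beside 18.4% and 18.2% of all tested genes, with a median of 0.25. Its 2 ligand genes with the largest changes went in opposite directions. Wnt7b was at 57.3, 48.6 and 82.6 normalised read counts in wild type and at 0.522 and 0.342 in knockout libraries, a difference of -5.45 ± 0.24 (SE, adjusted p = 1.27e-05). Wnt4 was at 5.03, 4.46 and 1.68 against 40.0 and 47.6, a difference of 3.33 ± 0.34 (SE, adjusted p = 0.000621). The groups of both did not overlap. The transcription factor gene Tcf7l1 fell as well (-1.49 ± 0.21). The secreted protein genes Wisp1 and Wisp2 moved apart, with differences of -1.005 ± 0.17 and 1.80 ± 0.22, and Nkd2, an intracellular inhibitor gene, rose by 1.45 ± 0.16. Wnt pathway falls numbered 3 without wild-type replicate 3, 11 without knockout replicate 1, 3 in the fit of all 11 libraries and 3 with the length trend removed. Rises there numbered 5 and 4 without wild-type replicates 2 and 3, 4 in the fit of all 11 libraries and 14 with the length trend removed.

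The Igf and Fgf list, of ligands, binding proteins and other genes of these pathways, fell in 12 of 29 tested cases and rose in 3, with a median of -0.44. The non-coding RNA H19, abundant in these cells, was at 1026, 979 and 1134 normalised read counts in wild type and at 507 and 466 in knockout libraries, a difference of -1.10 ± 0.14 (SE, adjusted p = 0.00156). Its imprinted neighbour Igf2 was at 3.25, 4.89 and 6.57 against 1.46 and 0.897, a difference of -1.41 ± 0.29 (SE, adjusted p = 0.00894). The Igf receptor gene Igf1r and the adaptor gene Irs1 fell with differences of -1.29 ± 0.24 and -1.47 ± 0.24, and so did Hmga2, which encodes a chromatin protein of proliferating precursors (-1.55 ± 0.16). Knockout levels of these genes lay below all wild-type levels. Etv4, which Fgf signals induce, fell as well (-1.29 ± 0.15). Among Igf-binding proteins, Igfbp5 went from 1534, 1542 and 2139.6 to 1035 and 586, a difference of -1.14 ± 0.26 (adjusted p = 0.0129, and 0.0707 without wild-type replicate 3), or -0.73 without knockout replicate 2. Igfbp7 rose from 192, 196 and 147 to 447 and 727, a difference of 1.68 ± 0.23 (SE, adjusted p = 0.00193). Imprinted genes as a list fell in 7 of 14 cases and rose in 3. Peg10, derived from a retrotransposon, was at 26.6, 25.6 and 21.9 against 3.41 and 0.342, a difference of -3.40 ± 0.43 (SE, adjusted p = 0.00146), and Gatm, an enzyme gene of creatine synthesis, was at 126, 125 and 151 against 27.6 and 27.3, a difference of -2.24 ± 0.14 (SE, adjusted p = 6.43e-05). Peg3 did not pass, at 0.28. The Igf and Fgf falls numbered 7 in the fit of all 11 libraries. Rises there numbered 1 without wild-type replicate 3, 1 in the fit of all 11 libraries and 5 with the length trend removed. Imprinted gene falls numbered 4 in the fit of all 11 libraries. Rises there numbered 1 in the fit of all 11 libraries.

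Of the matrix genes, 20 of 41 tested collagen and collagen-processing genes fell and 5 rose, and 17 of 40 basement membrane and matrix glycoprotein genes fell and 9 rose. The medians were -0.33 and -0.35. Tnc, which encodes tenascin C, was at 850.0, 911 and 1035 normalised read counts in wild type and at 68.5 and 53.5 in knockout libraries, a difference of -3.92 ± 0.16 (SE, adjusted p = 1.01e-05). Fibronectin, Fn1, had the highest wild-type mean of these genes, at 5449, 5871 and 6702 against 2696 and 1533, a difference of -1.56 ± 0.25 (SE, adjusted p = 0.00387). Both genes were below every wild-type library in both knockout libraries, and knockout replicate 2 was the lower of the pair. The 3 collagen VI chains fell together, with differences of -2.13 for Col6a1, -2.56 for Col6a2 and -1.52 for Col6a3. Lama2, the laminin chain of the muscle basement membrane, was at 18.9, 22.5 and 26.1 against 1.39 and 0.171, a difference of -3.80 ± 0.31 (SE, adjusted p = 0.000214). Nid1, Fbn1, Col5a3 and Postn fell with differences of -2.21 ± 0.20, -1.995 ± 0.23, -1.99 ± 0.18 and -1.77 ± 0.27. Among fibrillar collagens, Col1a1, which encodes a chain of type I collagen, had a difference of -0.82 (adjusted p = 0.012, and 0.0556 without wild-type replicate 3), or -0.54 without knockout replicate 2. Key members that did not pass had differences of -0.18 for Col3a1 and 0.017 for Col4a1 and of -0.011 for Sparc. Smoc2, a calcium-binding matrix protein gene, rose from 22.5, 19.3 and 17.8 to 110.2 and 142, a difference of 2.60 ± 0.17 (SE, adjusted p = 7.66e-05). Osteopontin, Spp1, was at 4929.8, 5034 and 5630.2 against 8347 and 10923, a difference of 0.88 ± 0.19 (adjusted p = 0.0111, and 0.0541 and 0.0649 without wild-type replicates 1 and 2). Many matrix genes are long. With the length trend removed, 18 collagen and 14 glycoprotein genes were lower, and the medians were -0.16 and -0.052. The collagen falls numbered 13 each without wild-type replicates 1, 2 and 3 and 13 in the fit of all 11 libraries. Rises there numbered 2 each without wild-type replicates 1, 2 and 3, 2 in the fit of all 11 libraries and 3 on the values as deposited. The glycoprotein rises numbered 3 each without wild-type replicates 1 and 2 and 3 in the fit of all 11 libraries.

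Small leucine-rich proteoglycans and Mgp, which are secreted matrix proteins with short genes, rose in 5 of 8 tested cases and fell in 1. Ogn was at 199.6, 231 and 162 normalised read counts in wild type and at 508 and 469 in knockout libraries, a difference of 1.32 ± 0.17 (SE, adjusted p = 0.00169). Omd rose by 1.91 ± 0.26 from about 1. Mgp, matrix Gla protein, was at 834, 872 and 974 against 1686 and 3661, a difference of 1.48 ± 0.29 (adjusted p = 0.00797, and 0.0506 without wild-type replicate 3). That of Mgp was 0.92 without knockout replicate 2, the higher of the pair, and 0.85 with the length trend removed. Bgn, biglycan, did not pass, at 0.22. Proteoglycan falls numbered 0 each without wild-type replicates 1 and 3, 0 without knockout replicate 2 and 0 in the fit of all 11 libraries. Rises there numbered 3 and 2 without wild-type replicates 1 and 3 and 1 in the fit of all 11 libraries.

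Of the matrix proteases and their inhibitors, 17 of 36 fell and 6 rose, with a median of -0.49. The gelatinase gene Mmp2 was at 38.5, 35.2 and 41.5 normalised read counts in wild type and at 2.05 and 2.56 in knockout libraries, a difference of -3.58 ± 0.17 (SE, adjusted p = 1.97e-05). Timp3, an inhibitor bound to the matrix, was at 172, 173 and 176 against 26.2 and 19.7, a difference of -2.88 ± 0.15 (SE, adjusted p = 3.4e-05). Protease and inhibitor thus fell together. Adam8 and the urokinase gene Plau fell as well (-3.27 ± 0.19 and -1.09 ± 0.13), and Mmp14 did not pass, at -0.20. Timp1, another inhibitor, was at 465, 465 and 554 against 767 and 1286, a difference of 1.01 ± 0.22 (adjusted p = 0.0112, and 0.0511 without wild-type replicate 3), which was 0.64 without knockout replicate 2 and 0.57 with the length trend removed. Integrin genes fell in 8 of 15 cases and rose in 3. Itga6, a laminin receptor chain, Itga11, a collagen receptor chain, and Itgb6 fell with differences of -1.18 ± 0.17, -2.38 ± 0.25 and -1.73 ± 0.21, while Itgb5 rose by 0.93 ± 0.12. Itga5 and Itgb1, the chains of the fibronectin receptor, did not pass, at -0.36 and -0.0076. The protease falls numbered 11 without wild-type replicate 3 and 11 in the fit of all 11 libraries. Rises there numbered 2, 3 and 2 without wild-type replicates 1, 2 and 3 and 0 in the fit of all 11 libraries. Integrin falls numbered 4, 5 and 4 without wild-type replicates 1, 2 and 3 and 3 in the fit of all 11 libraries.

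Genes of G2/M and mitosis fell in 29 of 52 tested cases, with a median of -0.53. Limma called 0 of them higher, with 0 at an unadjusted p under 0.05, 0 by edgeR and 0 by DESeq2. Foxm1, the transcription factor of the mitotic programme, was at 128, 143 and 168 normalised read counts in wild type and at 59.0 and 43.2 in knockout libraries, a difference of -1.51 ± 0.18 (SE, adjusted p = 0.00127). The proliferation marker gene Mki67 was at 188, 237 and 250.4 against 115 and 119, a difference of -0.93 ± 0.16 (SE, adjusted p = 0.00484), or -0.53 with the length trend removed. Both were lower in each knockout library than in any wild-type library. Anln, which acts in cytokinesis, the spindle gene Dlgap5 and the kinase gene Melk fell with differences of -1.12 ± 0.14, -1.24 ± 0.16 and -1.10 ± 0.15. The topoisomerase gene Top2a had a difference of -0.48 (adjusted p = 0.031), and 0.121, 0.163 and 0.065 without wild-type replicates 1, 2 and 3. It was -0.11 with the length trend removed (adjusted p = 0.453). Cdk1 and Ccnb1, which form the kinase that drives mitosis, did not pass: Cdk1 was at 269.6, 257 and 244.97 against 211 and 324, and Ccnb1 at 18.7, 16.5 and 14.8 against 14.3 and 16.9, with groups that overlapped. The mitotic falls numbered 19 each without wild-type replicates 2 and 3 and 6 in the fit of all 11 libraries. Rises there numbered 5 without knockout replicate 1.

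In G1/S and DNA replication, 13 of 51 tested genes fell and 2 rose, with a median of -0.24. The largest falls were in regulators. Ccnd1 was at 388, 375 and 455.8 normalised read counts in wild type and at 164 and 179 in knockout libraries, a difference of -1.23 ± 0.14 (SE, adjusted p = 0.00108). Ccnd2 (-1.31 ± 0.23), the partner kinase gene Cdk6 (-1.81 ± 0.16), E2f2 (-1.69 ± 0.16) and the methylation reader gene Uhrf1 (-1.31 ± 0.15) fell as well. Key members that did not pass had differences of -0.58 for Rb1, -0.27 for Pcna, -0.15 for Mcm5 and -0.092 for Ccnd3. Among the inhibitors, Cdkn1a, which encodes p21, was at 329.7, 311 and 405 against 579 and 714, a difference of 0.89 ± 0.17 (SE, adjusted p = 0.00692), and Cdkn1b did not pass, at -0.37. The G1/S falls numbered 20 without knockout replicate 2 and 8 in the fit of all 11 libraries. Rises there numbered 0 each without wild-type replicates 1, 2 and 3, 11 and 1 without knockout replicates 1 and 2, 0 in the fit of all 11 libraries, 0 with the length trend removed and 1 on the values as deposited.

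Targets of p53 rose in 9 of 28 tested cases (32.1%) and fell in 4 (14.3%), beside 18.4% and 18.2% of all tested genes. The median was 0.11, and -0.018 on the values as deposited. Besides Cdkn1a, Bax, which encodes a pore-forming protein of apoptosis, was at 154, 142 and 125 normalised read counts in wild type and at 231 and 307 in knockout libraries, a difference of 0.92 ± 0.17 (SE, adjusted p = 0.00609), or 0.43 with the length trend removed. Psrc1 rose by 1.28 ± 0.18. Pmaip1, which encodes the apoptosis activator Noxa, went the other way, from 12.6, 12.3 and 10.3 to 0.730 and 0.214, a difference of -3.13 ± 0.23 (SE, adjusted p = 0.000132), and Plk2 fell as well (-1.68 ± 0.12). Calls in both directions were also seen among all tested genes, and the share of falls among p53 targets was below theirs. Trp53 itself was at 222, 232 and 282 against 261 and 251 and did not pass, nor did Mdm2, at 80.9, 81.0 and 67.4 against 98.9 and 98.9 (adjusted p = 0.071). The p53 target falls numbered 2 in the fit of all 11 libraries. Rises there numbered 4, 4 and 3 without wild-type replicates 1, 2 and 3 and 2 in the fit of all 11 libraries.

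Of 42 histone genes listed for both genotypes, only 13 passed the filter, 7 of them with fewer than 2 wild-type libraries at 1 or more, that is, through their knockout levels. Among the other 6, 5 rose and 1 fell. The gene that fell is H1f0, which encodes a linker histone made outside S phase and is known to have polyadenylated mRNA, unlike replication-dependent histones. Hist1h1c was at 62.5, 54.3 and 48.7 normalised read counts in wild type and at 232 and 319 in knockout libraries, a difference of 2.29 ± 0.18 (SE, adjusted p = 0.000195). Hist1h2bc was at 14.1, 16.3 and 16.1 against 45.5 and 96.1, a difference of 2.03 ± 0.28 (SE, adjusted p = 0.00226), and H1f0 at 229, 256 and 257 against 139.8 and 167, a difference of -0.69 ± 0.14 (adjusted p = 0.00922, and 0.0512 and 0.0505 without wild-type replicates 2 and 3). The summed level of the 42 histone genes listed for both genotypes was 323, 343 and 338 in wild type and 464 and 634 in the knockout. A further 10 histone genes were listed for the knockout only and 2 for the wild type only. Histone genes have near-identical copies, so the level of any member is uncertain. Over all 13, 12 were called higher, a count that the filter partly sets: it was 7 without wild-type replicate 3, 5 and 6 without knockout replicates 1 and 2 and 5 in the fit of all 11 libraries, and without a knockout library members also left the test.

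Ddx27 acts in ribosome assembly. Of 64 large-subunit factors, 16 (25%) rose and 7 (10.9%) fell, Ddx27 included. Of 68 small-subunit and snoRNP factors, 15 (22.1%) rose and 2 (2.94%) fell. The shares of all tested genes were 18.4% and 18.2%. Among the reported partners of Ddx27, Wdr12 was at 33.7, 30.3 and 24.2 normalised read counts in wild type and at 45.6 and 63.0 in knockout libraries, a difference of 0.86 ± 0.20 (adjusted p = 0.0142, and 0.0659 without wild-type replicate 3). Pes1 was at 121, 121 and 118 against 132 and 185 and Bop1 at 238, 245.4 and 281 against 259.8 and 317, and neither passed (adjusted p = 0.105 and 0.377). The abundant nucleolar protein gene Npm1 was at 164, 176 and 139 against 241 and 452, a difference of 1.05 ± 0.25 (adjusted p = 0.0151, and 0.0851 without wild-type replicate 3), or 0.60 without knockout replicate 2. Ncl did not pass (difference 0.44, adjusted p = 0.0539), while edgeR and DESeq2 called it higher. The rises that held without each library included Nop16 (1.04 ± 0.18), Imp3 (1.43 ± 0.22) and Nop10 (1.36 ± 0.25), and the falls Wdr36 (-0.92 ± 0.13). Of 23 genes of RNA polymerase I and ribosomal DNA transcription, 6 rose and 3 fell: the shared subunit gene Polr1d rose by 1.38 ± 0.17, while the cofactor Tcof1 had a difference of -0.80 (adjusted p = 0.012, and 0.0667 without wild-type replicate 3). The median of that list was 0.076, and -0.055 on the values as deposited. Key members that did not pass had differences of -0.052 for Nop2, of -0.11 for Heatr1, -0.087 for Nop56, 0.18 for Dkc1 and 0.56 for Fbl and of -0.12 for Polr1b, -0.04 for Rrn3 and 0.076 for Ubtf. Large-subunit falls numbered 1 each without wild-type replicates 1, 2 and 3, 12 without knockout replicate 1, 1 in the fit of all 11 libraries and 4 with the length trend removed. Rises there numbered 8, 9 and 3 without wild-type replicates 1, 2 and 3, 30 without knockout replicate 1 and 4 in the fit of all 11 libraries. Small-subunit falls numbered 1 each without wild-type replicates 1, 2 and 3, 8 without knockout replicate 1, 0 in the fit of all 11 libraries and 7 on the values as deposited. Rises there numbered 8, 7 and 4 without wild-type replicates 1, 2 and 3, 29 without knockout replicate 1 and 2 in the fit of all 11 libraries. Polymerase I falls numbered 1 without wild-type replicate 3, 6 without knockout replicate 1 and 1 in the fit of all 11 libraries. Rises there numbered 3 and 2 without wild-type replicates 1 and 3, 10 without knockout replicate 1 and 0 in the fit of all 11 libraries.

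Genes of ribosomal proteins and of the respiratory chain rose as groups, and these are short genes. Of 78 cytosolic ribosomal protein genes, 52 rose, with a median difference of 0.93 and a median length of 1405 bases. Of 77 nuclear-encoded genes of oxidative phosphorylation, 54 rose, with a median of 0.92. Of 72 mitochondrial ribosomal protein genes, 40 rose, with a median of 0.68. Limma, edgeR and DESeq2 each called 0 members of the 3 lists lower, and 1 oxidative phosphorylation gene was lower at an unadjusted p under 0.05. The 2 knockout libraries differed in size here: the medians were 1.28, 1.36 and 1.02 without knockout replicate 1, and 0.52, 0.50 and 0.37 without knockout replicate 2. With the length trend removed the medians were 0.54, 0.59 and 0.39, 34, 53 and 31 genes were called higher, and 2 cytosolic and 2 oxidative phosphorylation genes lower. Cytosolic falls numbered 1 without knockout replicate 1 and 2 with the length trend removed. Rises there numbered 31 and 10 without wild-type replicates 2 and 3, 34 without knockout replicate 2, 4 in the fit of all 11 libraries and 34 with the length trend removed. Oxidative phosphorylation falls numbered 1 without knockout replicate 1, 2 with the length trend removed and 1 on the values as deposited. Rises there numbered 35 and 10 without wild-type replicates 2 and 3 and 8 in the fit of all 11 libraries. Mitochondrial ribosomal falls numbered 1 without knockout replicate 2. Rises there numbered 24, 24 and 9 without wild-type replicates 1, 2 and 3 and 4 in the fit of all 11 libraries.

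Rpl5, whose protein can bind and inhibit Mdm2, was at 22.9, 21.7 and 13.3 normalised read counts in wild type and at 42.4 and 71.0 in knockout libraries, a difference of 1.499 ± 0.28 (SE, adjusted p = 0.00704), while its partner in that role, Rpl11, had a difference of 1.36 (adjusted p = 0.0139, and 0.0628 without wild-type replicate 3 and 0.0552 without knockout replicate 2). Rpl39 was at 99.4, 97.6 and 117 against 237 and 604, a difference of 1.85 ± 0.33 (SE, adjusted p = 0.00596), or 1.18 without knockout replicate 2, which held far more than knockout replicate 1. Rps6 and Rpl3 did not pass, at 0.48 and -0.093. Levels of this family are uncertain, since many members have near-identical copies in the genome: Rps6 and Rpl3 were listed below 6 in every library. Ndufa2, a subunit of complex I, was at 79.2, 87.3 and 67.3 against 196 and 546, a difference of 2.07 ± 0.36 (adjusted p = 0.00549, and 0.0503 without wild-type replicate 3), or 1.33 without knockout replicate 2. Cox7a1, a muscle form, did not pass, at 0.20. Limma called 0 of the 7 mitochondrially encoded mRNAs, with 3 at an unadjusted p under 0.05, 1 by edgeR and 4 by DESeq2. Their median was 0.59, mt-Co1 was at 0.19 and mt-Nd1 at 0.59, and 5 were called higher without knockout replicate 1 and 1 without wild-type replicate 1.

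**Figure D4:**
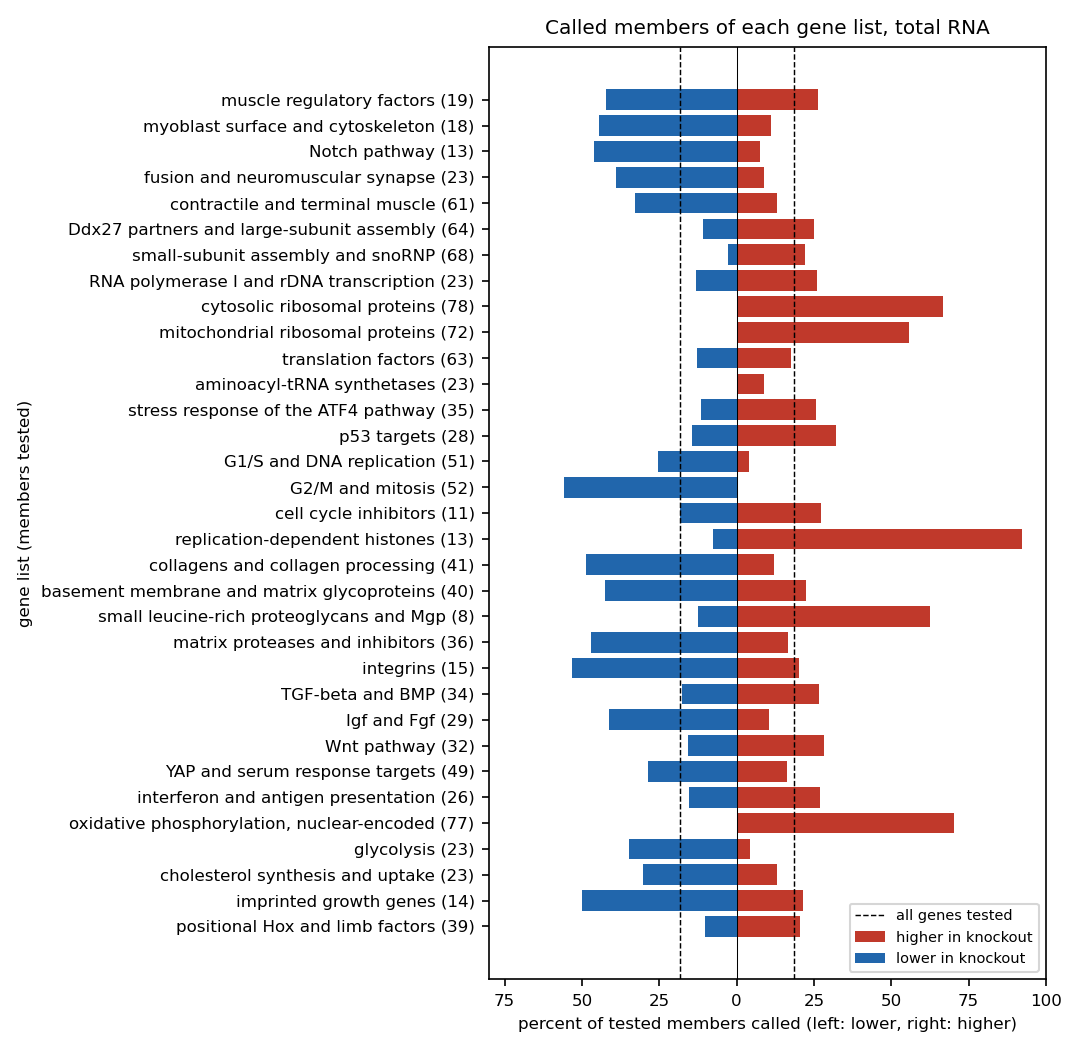
Percent of the tested members of each gene list called lower (bars to the left) or higher (bars to the right) in knockout total RNA, with the number tested in brackets and dashed lines at the shares of all tested genes, 18.2% and 18.4%. The ribosomal protein and oxidative phosphorylation lists have almost only bars to the right, and the G2/M list has only a bar to the left.

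Translation factors were called no more often than all tested genes. Limma called 11 of 63 (17.5%) higher and 8 (12.7%) lower, beside 18.4% and 18.2% of all tested genes. The median was 0.11 (-0.025 on the values as deposited). Eif4a2, an initiation helicase gene, rose from 76.2, 72.7 and 65.2 to 171 and 160.1, a difference of 1.21 ± 0.14 (SE, adjusted p = 0.000969), and Eif4ebp2, a repressor of initiation, fell from 79.9, 79.2 and 96.3 to 43.6 and 27.2, a difference of -1.27 ± 0.21 (SE, adjusted p = 0.00431). Key members that did not pass had differences of -0.23 for Eef2, -0.058 for Eif4e, 0.11 for Eef1a1 and 0.32 for Eif4ebp1. Of 23 aminoacyl-tRNA synthetase genes, 2 rose, and limma called 0 lower, with 2 at an unadjusted p under 0.05, 0 by edgeR and 1 by DESeq2. Gars and Aars did not pass, at -0.36 and 0.022. Translation factor falls numbered 3, 4 and 3 without wild-type replicates 1, 2 and 3, 17 without knockout replicate 1, 1 in the fit of all 11 libraries and 14 on the values as deposited. Rises there numbered 5, 3 and 2 without wild-type replicates 1, 2 and 3, 25 without knockout replicate 1 and 3 in the fit of all 11 libraries. Synthetase falls numbered 3 and 1 without knockout replicates 1 and 2, 1 with the length trend removed, 2 on the values as deposited and 1 by DESeq2. Rises there numbered 1, 0 and 0 without wild-type replicates 1, 2 and 3, 9 without knockout replicate 1, 1 in the fit of all 11 libraries, 4 with the length trend removed, 1 on the values as deposited and 6 by DESeq2.

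Stress genes of the ATF4 pathway rose in 9 of 35 cases (25.7%) and fell in 4 (11.4%), with a median of 0.25. The shares of all tested genes were 18.4% and 18.2%. Ddit3, which encodes CHOP, was at 27.7, 27.2 and 23.3 normalised read counts in wild type and at 59.2 and 88.1 in knockout libraries, a difference of 1.44 ± 0.19 (SE, adjusted p = 0.00201). Cebpb, its partner, was at 71.9, 69.0 and 61.7 against 148 and 234, a difference of 1.45 ± 0.20 (SE, adjusted p = 0.00214). Atf3, which the same pathway induces, was far lower, at 22.7, 19.6 and 24.9 against 3.86 and 3.33, a difference of -2.34 ± 0.18 (SE, adjusted p = 0.000186). All tested genes, too, held calls in both directions, with a larger share of falls than this list. Atf4, the amino acid enzyme gene Asns and Trib3 did not pass, at 0.26, -0.43 and -0.11. The stress gene falls numbered 2 without wild-type replicate 2, 1 in the fit of all 11 libraries, 7 with the length trend removed and 7 on the values as deposited. Rises there numbered 4, 4 and 3 without wild-type replicates 1, 2 and 3, 17 without knockout replicate 1, 0 in the fit of all 11 libraries and 4 on the values as deposited.

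Glycolysis genes fell in 8 of 23 cases and rose in 1, with a median of -0.26. The glucose transporter gene Slc2a1 was at 237, 230.1 and 261 normalised read counts in wild type and at 90.8 and 93.5 in knockout libraries, a difference of -1.39 ± 0.13 (SE, adjusted p = 0.000441). The lactate exporter gene Slc16a3 was at 12.49, 11.4 and 12.7 against 0.278 and 0, a difference of -3.55 ± 0.21 (SE, adjusted p = 4.78e-05). The hexokinase gene Hk2 fell as well (-0.98 ± 0.20). Ldha, Aldoa and Pfkm did not pass, at 0.39, -0.21 and 0.24. In cholesterol synthesis and uptake, 7 of 23 genes (30.4%) fell and 3 (13.0%) rose, with a median of -0.28. The shares of all tested genes were 18.2% and 18.4%. Of its enzymes, Ebp rose by 1.33 ± 0.13, against the main direction of the list, while Sqle and Hmgcs1 did not pass, at -0.29 and -0.28. The cholesterol falls numbered 4 each without wild-type replicates 2 and 3, 12 without knockout replicate 1, 2 in the fit of all 11 libraries and 12 on the values as deposited. Rises there numbered 1 each without wild-type replicates 1 and 3, 7 and 1 without knockout replicates 1 and 2 and 1 in the fit of all 11 libraries. Glycolysis falls numbered 5 in the fit of all 11 libraries. Rises there numbered 0 without wild-type replicate 3, 5 and 2 without knockout replicates 1 and 2, 0 in the fit of all 11 libraries, 2 by edgeR and 2 by DESeq2.

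Genes of the interferon response and antigen presentation rose in 7 of 26 tested cases (26.9%) and fell in 4 (15.4%). The shares of all tested genes were 18.4% and 18.2%. The chemokine gene Ccl7 went from 8.53 ± 0.311 to 44.3 ± 24.7 and Ccl2 from 7.49 ± 0.601 to 28.4 ± 13.4 (SD, n = 3 and n = 2), with differences of 2.13 ± 0.31 and 1.72 ± 0.27. The class I gene H2-K1 fell (-0.88 ± 0.16), and B2m did not pass, at 0.73. Among targets of YAP and serum response factor, 14 of 49 (28.6%) fell and 8 (16.3%) rose. The targets Ctgf, Ankrd1, Egr1 and Fos did not pass, at -0.026, 0.16, -0.29 and -0.038. Of 39 Hox and limb patterning genes, 8 rose and 4 fell. Hoxa7 was at 11.1, 12.1 and 13.3 normalised read counts in wild type and at 1.496 and 2.05 in knockout libraries, a difference of -2.25 ± 0.20 (SE, adjusted p = 0.00032), and the limb mesenchyme factor gene Prrx2 at 107, 115 and 116 against 244 and 424, a difference of 1.505 ± 0.22 (SE, adjusted p = 0.00266). Prrx1 and Tbx3 did not pass, at -0.32 and -0.12. A further 10 genes of this list, among them Hoxb2, Hoxb3, Hoxb4, Hoxb6, Hoxb8, Hoxb9 and Hoxb13, were listed for the wild type only. The YAP target falls numbered 9, 8 and 7 without wild-type replicates 1, 2 and 3 and 6 in the fit of all 11 libraries. Rises there numbered 4, 4 and 3 without wild-type replicates 1, 2 and 3, 1 in the fit of all 11 libraries and 4 on the values as deposited. Hox list falls numbered 2 each without wild-type replicates 1, 2 and 3 and 9 without knockout replicate 1. Rises there numbered 4, 4 and 3 without wild-type replicates 1, 2 and 3 and 0 in the fit of all 11 libraries. The interferon falls numbered 2 each without wild-type replicates 1, 2 and 3 and 1 in the fit of all 11 libraries.

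Markers of other cell types were mostly low or without a value. Of 4 endothelial and 4 epithelial markers, none had a value for both genotypes, and Cdh1 was listed for the wild type only. Of 5 leukocyte markers, Cd68 and Csf1r had values and the defining Ptprc did not, and the summed levels were 2.55 to 3.40 normalised read counts in wild type and 7.17 to 10.6 in the knockout. Csf1r rose by 1.57 ± 0.25, and Cd68 had a difference of 0.76 (adjusted p = 0.0404, and 0.116, 0.152 and 0.0636 without wild-type replicates 1, 2 and 3 and 0.154 without knockout replicate 2). Of 5 smooth muscle markers, 3 had values, the defining Myh11 did not, and the summed levels were 3096 to 3198 against 5044 to 5825. Acta2, an actin gene also expressed in myoblasts, was at 2792, 2790.5 and 2889.6 against 4774 and 5374, a difference of 0.84 ± 0.16 (SE, adjusted p = 0.0066), and Smtn fell (-1.36 ± 0.17). Of 5 neural markers, 2 had values: Tubb3 went from 229 ± 31.8 to 41.0 ± 3.59 and Mbp from 5.99 ± 0.535 to 16.8 ± 3.57 (SD, n = 3 and n = 2). Of 8 markers of bone and cartilage, 2 had values, with summed levels of 135 to 163 against 71.8 to 95.9: Sox9 fell (-1.34 ± 0.22), and Runx2 did not pass, at -0.18. Of 7 fibroblast markers, 2 had values, with summed levels of 25.1 to 40.4 against 16.2 to 20.9 and a median difference of -0.68. Pdgfra did not pass, at -0.57, and the other was called lower. That call was lost without wild-type replicates 1 and 3 and in the fit of all 11 libraries. Cd248 and Cd34 were listed for the wild type only. Of 6 adipocyte markers, 3 had values, with summed levels of 66.2 to 81.5 against 77.3 to 87.2. Limma called 0 of those 3, with 1 at an unadjusted p under 0.05, 0 by edgeR and 1 by DESeq2. The 6 myoblast markers with values summed to 2875, 2857 and 3939 in wild type and to 1117 and 1304 in the knockout. Of these 6, 5 were called lower, 4 of them by at least 1, and Myf5 higher, with a median difference of -1.09. Des was the largest part of the sum. Myod1 was near 0 in the knockout libraries, and the lowest of the other 5 there was Vcam1, at 28.4 and 32.0. The part of cell composition in the results above was not tested.

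Genes listed for 1 genotype only have no fold change here, and the rule by which a gene entered either table is not given in the sources used here. On the values as deposited, every gene of the wild-type table reached at least 1.004 in some library. For the knockout table, that lowest maximum was 1.012. Genes listed for 1 genotype only were left out of the ranking of falls and rises above. Of 741 genes listed for the wild type only, the highest in total RNA was Alox5, which encodes arachidonate 5-lipoxygenase, at 404.8, 393.8 and 534.4 normalised read counts. Prrg4, Pdlim3, which encodes a protein of the muscle Z-disc, Tspan7 and Sirpa followed with means of 105.7, 88.9, 48.2 and 37.8. Of 437 genes listed for the knockout only, the highest was Pvalb, which encodes the calcium buffer of fast muscle fibres, at 44.6 and 81.0, followed by Trem2, the BMP pseudoreceptor gene Bambi, Fam213a and Trdn with means of 11.3, 9.90, 6.22 and 5.74. Of the contractile and terminal muscle list, 8 genes were listed for the wild type only, among them Pdlim3, Xirp2, Casq1 and Actn2. The 2 listed for the knockout only were Pvalb and Trdn.

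The same contrast in polysomal RNA, which is RNA that carries several ribosomes, rests on 6 other libraries of the same genotypes. There limma called 200 genes (1.61%) higher and 114 (0.92%) lower in the knockout. Of the 2224 genes called higher in total RNA and tested in both, 1365 (61.4%) had a difference above 0 in polysomal RNA, 124 were called higher and 1 lower. Of the 2207 called lower, 1418 (64.3%) had a difference below 0, and 100 were called lower. The shares by sign were not set against those of all tested genes. Myod1 was at 65.2, 98.3 and 73.8 in wild-type and 0, 0 and 0.0868 in knockout polysomal libraries, a difference of -6.26 (adjusted p = 8.23e-05) beside -6.38 in total RNA. Ddx27 had differences of -2.06 and -1.62, Ptgis of -3.88 and -5.01, Ncf4 of 4.38 and 4.35 and Mmp2 of -3.18 and -3.58, in polysomal and total RNA. All 5 were called in both kinds of RNA. For 3 of the short-gene lists the medians of the fractions had opposite signs: the polysomal medians were -0.30 for cytosolic ribosomal proteins, -0.077 for the respiratory chain list and -0.25 for ribosomal proteins of mitochondria, beside 0.93, 0.92 and 0.68 in total RNA. The mitochondrially encoded mRNAs, also short, and the proteoglycans had polysomal medians of 1.48 and 1.20 beside 0.59 and 0.86 in total RNA. The slopes on gene length, against the wild-type mean of total RNA, were -0.222, -0.518 and -0.129 in wild-type polysomal libraries. In knockout polysomal libraries they were -0.398, -0.0761 and -0.142. The genotypes thus overlapped in slope there, while in total RNA both knockout slopes lay below those of the wild type. No trend was removed from the polysomal libraries, and the part of length in the opposite signs was not tested. No test of the difference between fractions was made for lists. The large-subunit and small-subunit assembly lists had polysomal medians of -0.50 and -0.46 beside 0.25 and 0.19 in total RNA, and the muscle regulatory, fusion and contractile lists of 0.21, 0.28 and 0.20 beside -0.33, -0.38 and -0.41. Of the 61 contractile genes, 6 were called higher and 3 lower in polysomal RNA. The receptor subunit gene Chrng was at 0.737, 1.08 and 0.596 in wild-type and 6.99, 3.47 and 6.21 in knockout polysomal libraries, a difference of 1.83 (adjusted p = 0.0207) beside -0.16 in total RNA. Dll1, the only gene of the Notch list called in polysomal RNA, had differences of 2.15 there and 0.90 in total RNA. The difference between the 2 contrasts passed the threshold for 40 of 12233 genes in limma's fit of all 11 libraries.

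**Figure D5:**
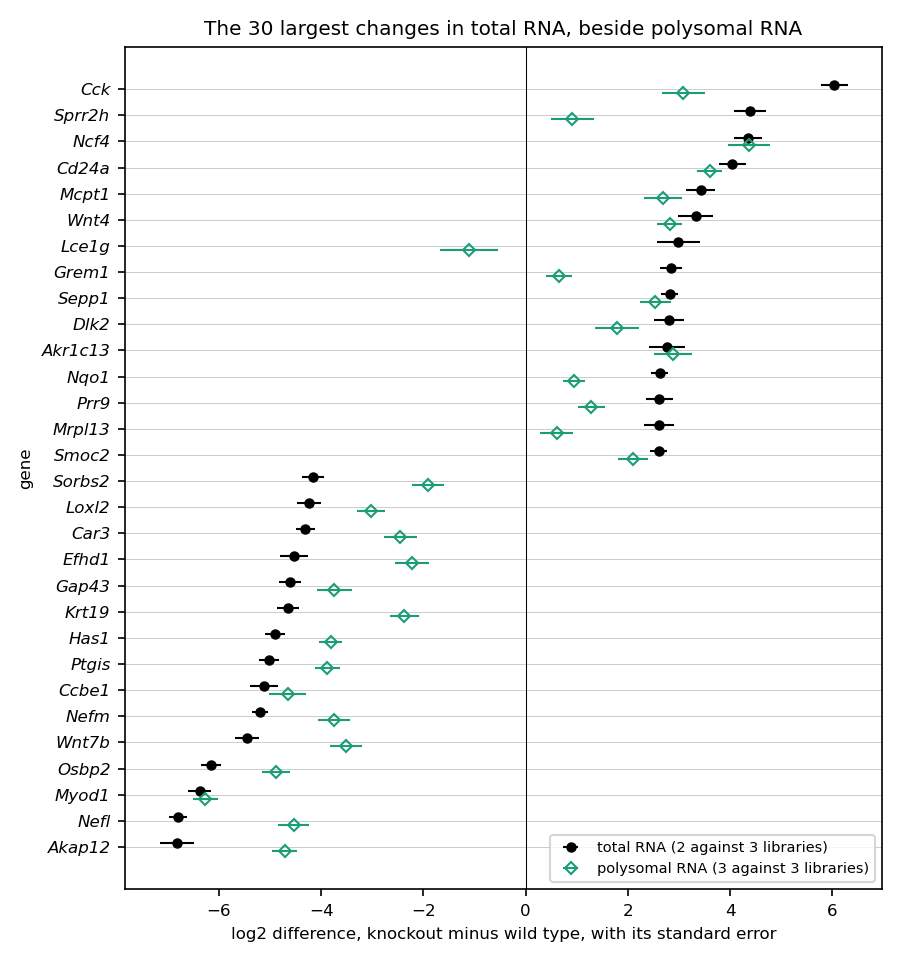
Difference between knockout and wild type (horizontal axis, log2, with its standard error) for the 15 largest rises and 15 largest falls of total RNA, in total RNA (black points, by which the genes were chosen) and in polysomal RNA (green diamonds). All 15 falls are below 0 in both, while Sprr2h, Grem1, Nqo1 and Mrpl13 are between 0.61 and 0.94 in polysomal RNA and Lce1g is at -1.11.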

How the data were processed

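The study measured RNA of wild-type and Ddx27-/- C2C12 cells. The submitters' processing notes name STAR, HTSeq, edgeR and mm10, without roles, order or versions. The deposited values, which the authors call CPM, are a signal of whole reads times 1 factor per library, set separately in each genotype's table. Dividing by that factor gave whole reads for every value within 0.001 reads. Both tables were joined by gene identifier (12590 genes), and a common scale was set for all libraries with median-of-ratios factors from 10919 genes above 1 in all 11 libraries. The authors' deposited log2 fold changes and p-values compare polysomal with total RNA and were not used here.

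Genes at 1 or more in at least 2 of the 5 total RNA libraries were tested on log2(value + 1) with limma 3.58.1 in R 4.3.3 (lmFit, eBayes with trend), knockout against wild type, at a Benjamini-Hochberg adjusted p below 0.05. The script was tested on simulated data. Named genes come from Ddx27, its neighbours within 500 kb, the 15 largest rises and 15 largest falls among called genes with groups that do not overlap, the called members of each list with the largest change (at most 8 a direction), its key members called or not, and the 5 highest genes listed for 1 genotype only. The members and lists were chosen with earlier results of these data known. Alternatives were pseudocounts of 0.1 and 4, other filters and scalings, a linear trend on log2 gene length removed from each library, a fit of all 11 libraries, leaving out each library, edgeR 4.0.16 and DESeq2 1.42.0 on recovered reads. The 5 libraries held totals of 18253045 to 27347878 reads. Standard errors and limma's p-values come from the spread between libraries. Limma draws each gene's spread towards a trend over all genes and takes it as equal in both genotypes. Gene coordinates and upstream windows are from RefSeq (GRCm38.p6), matched by symbol for 12434 genes. The values of a further sample labelled as knockout total RNA were not analysed here. Some members of the lists are counted but not reported here by name.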

Additional observations from a re-analysis of the deposited data

Results flagged for a closer look

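Among the named genes, 14 differed in size of response between polysomal and total RNA by limma's interaction test over all 11 libraries (adjusted p = 0.0241 to 0.0491), with polysomal minus total differences as follows. Lower in polysomal RNA were the responses of Sprr2h (-3.476), Tagln (-2.83), Grem1 (-2.184) and Nqo1 (-1.678), each of which was called higher in total RNA. Their polysomal differences were 0.92, -2.01, 0.66 and 0.94. Ctgf, a target of YAP that did not pass in total RNA (-0.026), had a difference between the fractions of -1.607 and was at -1.63 in polysomal RNA. Higher in polysomal RNA were those of Sorbs2 (2.249), Nefl (2.266), Krt19 (2.276), Adam8 (2.441), Chrnd (2.47), Itga11 (2.605), Lama2 (2.669), Notch1 (2.725) and Myh3 (3.381). These 9 genes fell in total RNA. Among them, Nefl, Krt19 and Sorbs2 were at -4.54, -2.37 and -1.91 in polysomal RNA, while Notch1 and Chrnd were at 0.48 and 0.68 there. Notch1 was at 14.6, 6.14 and 15.4 normalised read counts in wild-type and 11.5, 20.9 and 17.1 in knockout polysomal libraries, while its groups did not overlap in total RNA. Myh3 was near 0 in all polysomal libraries, at 0.388, 0 and 0.119 against 0, 0.0890 and 0.130, and Itga11 was below the filter there, so their values have no polysomal change behind them. The 2 fractions are separate libraries of unequal number, and the call of Tagln in total RNA was lost without single libraries (adjusted p = 0.0612, 0.0511 and 0.147 without wild-type replicates 1, 2 and 3 and 0.133 without knockout replicate 2).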

How the results depend on the processing

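No paired analysis was possible because the numbers of the knockout columns could not be tied to sample titles, so no shared replicate numbers link the groups. The counts of 2247 genes higher and 2227 lower in the knockout became 599 and 720 in the fit of all 11 libraries, in which polysomal libraries share the estimate of the spread. Leaving out single libraries gave 847 to 3424 higher and 917 to 3777 lower. Under the other 11 alternatives they were within 1.5 times, at 1646 to 2669 and 2052 to 3123. The cause of these shifts was not tested. Of 172 called genes named, 125 kept direction and call under every alternative that tested them, and 166 did so outside the leave-one-out and 11-library fits. In those tests, 0 changed sign. A setting in which a gene was not tested, or had no adjusted p, was not counted against it. Sprr2h and Lce1g, for example, had no test without 1 of the knockout libraries. Genes near 0 in a group depend on the pseudocount: by edgeR, Slc16a3 was at -6.28, Itga11 at -4.28, Loxl2 at -7.02, Gap43 at -6.96 and Lce1g at 5.55. Depth limits such genes most.

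Genes that were not called and changed sign were these; the cause was not tested. On the values as deposited, Aars was at -0.11, Cdk1 at -0.10, Col4a1 at -0.11, Eef1a1 at -0.025, Inhba at -0.062, Trp53 at -0.063 and Ubtf at -0.055. With quantile normalization, Aars was at -0.022, Ankrd1 at -0.017, Bgn at -0.038, Cdk1 at -0.058, Col4a1 at -0.041, Eef1a1 at -0.23, Trp53 at -0.0095 and mt-Co1 at -0.028. With the length trend removed, Ankrd1 was at -0.075, Arfgef2 at 0.32, Ccnb1 at 0.056, Ccnd3 at 0.095, Col3a1 at 0.099, Cox7a1 at -0.61, Eef1a1 at -0.012, Eif4ebp1 at -0.12, Gm11472 at -0.26, Heatr1 at 0.13, Inhba at -0.13, Itgb1 at 0.083, Jag1 at 0.046, Polr1b at 0.090, Prrx1 at 0.0082, Runx2 at 0.18, Tbx3 at 0.14 and mt-Co1 at -0.091. On the scale from the 5 total libraries, Itgb1 was at 0.0095 and Sparc at 0.0056. By DESeq2, Itgb1 was at 0.0044 and Sparc at 0.015. By edgeR, Sparc was at 0.0099. Without single libraries, the values ranged from -0.035 to 0.079 for Aars, -0.27 to 0.20 for Arfgef2, -0.20 to 0.025 for Ccnb1, -0.32 to 0.13 for Ccnd3, -0.28 to 0.33 for Cdk1, -0.35 to 0.078 for Chrng, -0.70 to 0.21 for Ckm, -0.42 to 0.072 for Col3a1, -0.27 to 0.30 for Col4a1, -0.31 to 0.70 for Cox7a1, -0.17 to 0.12 for Ctgf, -0.12 to 0.33 for Eef1a1, -0.13 to 0.014 for Eif4e, -0.100 to 0.041 for Fos, -0.39 to 0.16 for Heatr1, -0.36 to 0.48 for Inhba, -0.10 to 0.087 for Itgb1, -0.51 to 0.12 for Mmp14, -0.23 to 0.055 for Nop56, -0.59 to 0.061 for Pcna, -0.0045 to 0.57 for Peg3, -0.32 to 0.068 for Polr1b, -0.27 to 0.0053 for Rpl3, -0.22 to 0.19 for Sparc, -0.46 to 0.22 for Tbx3, -0.50 to 0.075 for Tnnt2 and -0.042 to 0.42 for mt-Co1.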
